A study of Homo sapiens with 8 samples.

Results

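The α-satellite array at the centromere of chromosome 11 and the DNA on either side of it were followed in 2 lists of genomic regions recovered with antisense probes against α-satellite RNA. Regions (peaks) were taken where chromosome 11 peaks start between 48.0 and 58.0 Mb of genome build hs1, which gave 1998 of 32035 peaks in asynchronous cells and 2243 of 33553 in mitotic cells. The main array was the part from 50.6 to 54.5 Mb, with 1948 and 2200 peaks. The short arm flank, at lower coordinates, held 33 and 21 peaks and the long arm flank 17 and 22.

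The study used ChIRP-seq: sonicated cells are incubated with biotinylated oligonucleotides that pair with a chosen RNA, and the DNA that comes down with that RNA is sequenced. All 8 libraries came from wild-type RPE1, a human retinal pigment epithelial cell line, grown asynchronously or taken in mitosis (labelled Meta). Each condition had an input, a library labelled Scr, and pull-downs with separate Odd and Even probe sets. The Odd and Even pull-downs were merged into the 1 peak list of each condition, so no spread between cultures could be measured and the conditions were not tested against each other. Intervals (95%) cover counting error only and treat neighbouring peaks as independent. The input and Scr libraries were not analysed here, so DNA held by RNA and DNA paired directly with the probes cannot be told apart, and the depth of the libraries is unknown.

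α-Satellite DNA is built of short tandem monomers that are grouped into longer higher-order repeats, and the higher-order repeat is copied many times with few differences to form an array. The chromosome 11 array belongs to suprachromosomal family 3, a group of related higher-order repeats that also occurs on chromosomes 1, 17 and X. Chromosome 1 carries in addition a large array of a family 1 dimer shared with chromosomes 5 and 19. Within such an array a part carries the centromeric histone CENP-A and the kinetochore, and the flanks hold older, diverged monomers and other pericentromeric repeats. The family of the array was taken as background, since no sequence or repeat annotation of build hs1 was used here to test it.

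Listed peaks on chromosome 11 were almost confined to the centromere window in both lists. The window held 99.5% of the asynchronous and 97.5% of the mitotic peaks listed on the chromosome, with 10 and 58 peaks elsewhere. Those nearest to the window were single short peaks, 28.6 Mb below and 5.89 Mb above it in the asynchronous list and 9.74 Mb below and 3.09 Mb above it in the mitotic list. Inside the window the listed peaks of the array stood apart from those of the flanks. No peak of either list lay in the 1.49 Mb between the short arm flank peaks and the array, or in the 409 kb that followed the array. Calls carry running numbers, and in both lists numbers were missing between the array and the flank peaks, on at least 1 side. Calls there had thus been removed before deposit, and an empty stretch means no listed peak rather than no call. The array contributed 5.33% of all covered length in asynchronous cells and 4.77% in mitotic cells.

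In the array, mitotic cells had more peaks over less DNA. Peaks covered 2.53 Mb (64.9% of the array) in the asynchronous list and 2.30 Mb (58.9%) in the mitotic list, a ratio of 0.908, while the number of peaks was 1.13 times higher in mitosis (1.06 to 1.20). Over the whole lists the corresponding ratios were 1.01 for covered length and 1.05 for peak number (1.03 to 1.06). Peaks of the array were narrower in mitosis, with a median width of 766 bp (quartiles 441 and 1316 bp) against 944 bp (524 and 1593 bp). Over the whole lists the median was also lower in mitosis, 796 against 868 bp, so the direction was not particular to the array. The widths of the lists overlapped widely, from 142 to 12143 bp in asynchronous and from 161 to 9719 bp in mitotic cells.

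The loss of covered length ran along nearly the whole array. Of its 39 bins of 100 kb, 36 had less covered length in the mitotic list and 3 had more, where 53.5% of such bins over the largest peak regions of all chromosomes had less. The 36 bins are neighbours in the same pair of lists and are not replicates. The median difference per bin was -6.96 percentage points, from -15.5 to 5.43. In 30 of the 36 bins covered length was lower although the number of peaks was higher. The largest falls were at 54.0 to 54.1 Mb, where coverage went from 77.1% to 61.6%, at 53.6 to 53.7 Mb, from 71.8% to 58.1%, and at 53.0 to 53.1 Mb, from 55.9% to 44.4%. The bins with more mitotic coverage all lay at the short arm end. The one at 51 to 51.1 Mb went from 48.4% to 53.8%, and 8246 bp of the mitotic value came from a single peak (50998527 to 51008245), the widest of the mitotic array.

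**Figure D1:**
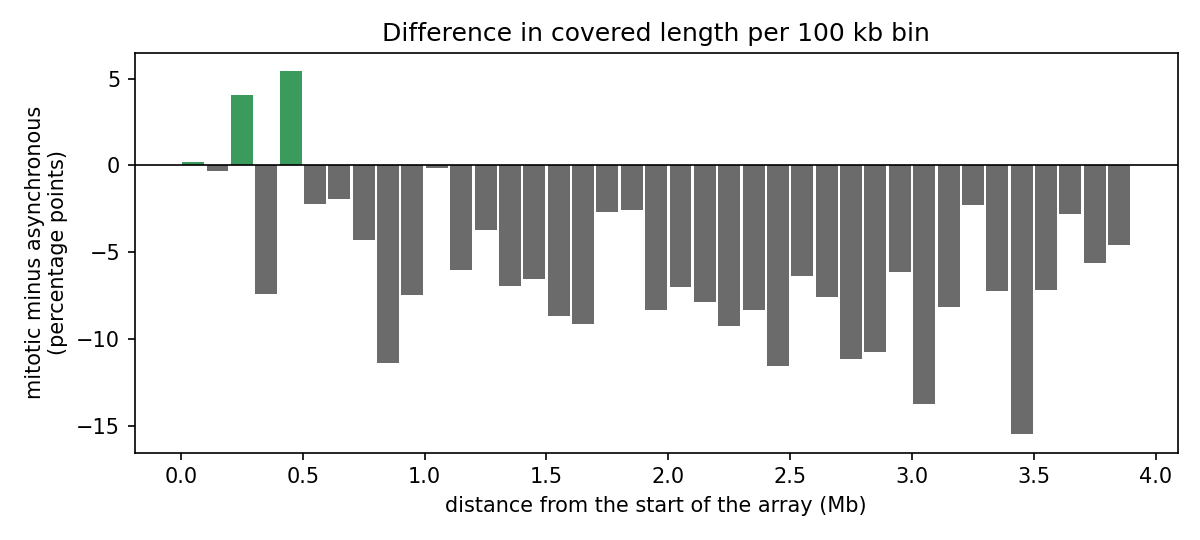
Mitotic minus asynchronous covered length, in percentage points, for each 100 kb bin of the array against distance from its start in Mb. Grey bars mark the 36 bins with less mitotic coverage and green bars the 3 with more, all within the first 0.5 Mb.

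Coverage differed between stretches of the array, in the same order in both lists. A fit of 4 constant levels to the mean of both lists placed breaks at 51, 52.4 and 53.4 Mb. Fits of 3 and 5 levels kept the breaks at 51 and 52.4 Mb, and that of 3 levels had none at 53.4 Mb. Such a fit draws steps whatever the profile. Neither list was fitted alone, so the shared breaks follow from the method. The first 0.4 Mb was nearly empty, with 4.98% covered by 32 asynchronous peaks and 4.11% by 20 mitotic peaks. The next 1.4 Mb was the most densely covered block, at 81.8% and 77.1%, and its best bin, 51.8 to 51.9 Mb, reached 90.1% and 86.3%. At 52.4 Mb coverage dropped between neighbouring bins, from 85.9% to 55.5% in the asynchronous list and from 83.2% to 52.9% in the mitotic list. The middle block of 1.0 Mb was covered over 58.2% and 50.2%, and the last block of 1.1 Mb over 71.1% and 63.5%. At 53.4 Mb neighbouring bins differed little, with 65.3% and 68.0% in the asynchronous list and 54.1% and 57.2% in the mitotic list. The breaks were chosen after the positions had been seen.

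Among the 3 blocks after the sparse first 0.4 Mb, those with lower coverage had more and shorter peaks. The densely covered block had 45.2 asynchronous and 55.8 mitotic peaks per 100 kb, with median widths of 1366 and 1020 bp. The middle block had 65.4 and 70.4 peaks per 100 kb, with median widths of 718 and 546 bp. The last block lay between them in each list, at 57.2 and 63.2 peaks per 100 kb and 947 and 767 bp. The mitotic median was thus below the asynchronous one in each of these 3 blocks. The sparse first 0.4 Mb did not follow this: it had the fewest peaks, 8 and 5 per 100 kb, and its median width was higher in mitosis, 721 against 414 bp. After that first stretch gaps between listed peaks had a median of 280 bp (asynchronous) and 330 bp (mitotic) and were never under 101 bp. A gap exceeded 5 kb in 3 and 1 cases. The longest stretch there without a peak in either list ran from 51008246 to 51024826 (16581 bp). Within the first 0.4 Mb it was 95232 bp, from 50605672 to 50700903.

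**Figure D2:**
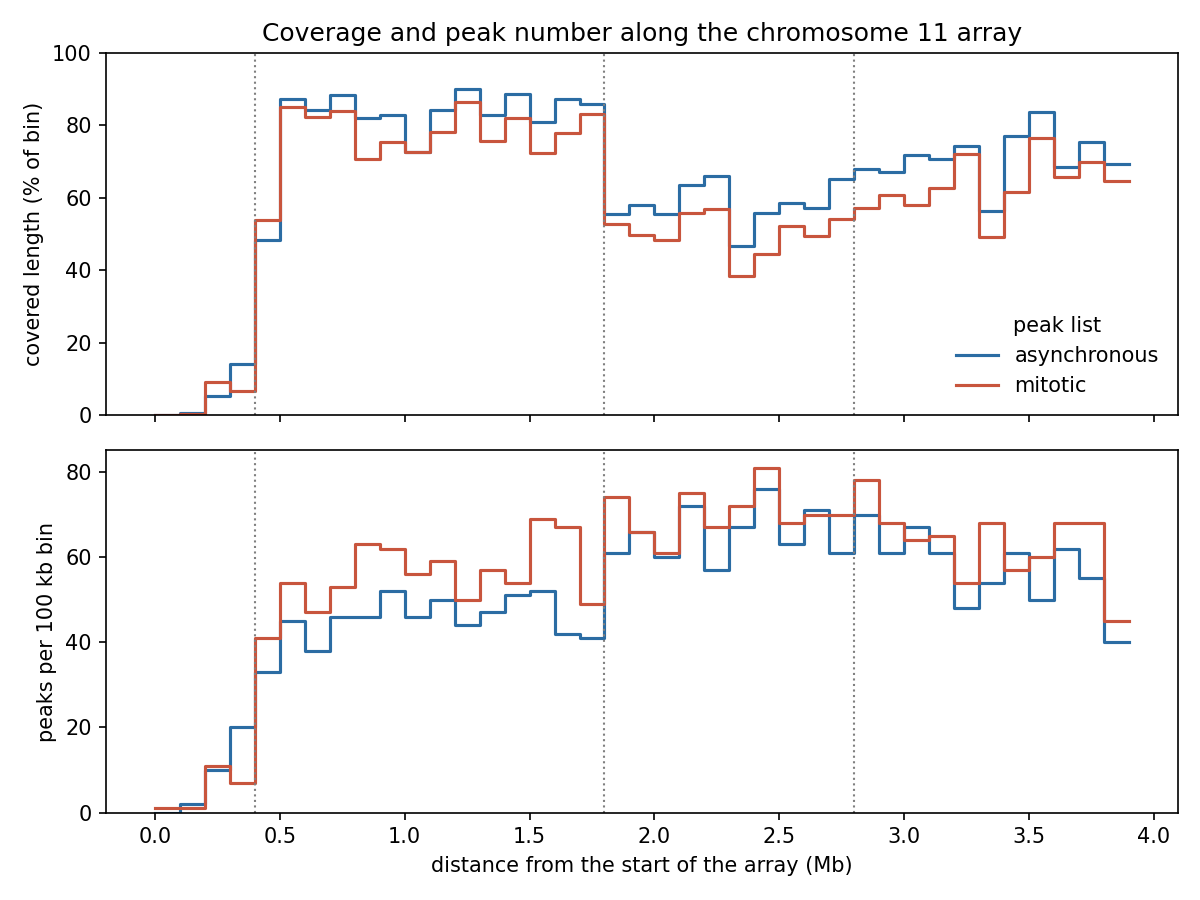
Covered length as a percentage of each 100 kb bin (top) and number of peaks starting in it (bottom) along the array, as distance from its start in Mb, for the asynchronous and mitotic lists. Dotted lines mark the breaks of the 4-level fit: the block after the first line is covered over 81.8% and 77.1%, the block after the second over 58.2% and 50.2%, and peak number does not follow that drop.

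Peak strength, read as the authors' fold enrichment of each peak over local background, followed the same blocks. Asynchronous medians were 10.2 in the densely covered block, 8.49 in the middle block and 9.04 in the last block, and mitotic medians 9.14, 8.16 and 8.33. The sparse first 0.4 Mb had medians of 5.01 and 5.77. Over the array the median was 9.17 in the asynchronous list, against 7.73 over all its peaks, and 8.55 in the mitotic list, against 7.98. Strong peaks were those that reached both 6 in fold enrichment and 5 in −log10 q. By this limit 87.1% of asynchronous array peaks (85.5 to 88.5%) were strong against 73.7% of that list, and 85.5% of mitotic ones (83.9 to 86.9%) against 77.6%.

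The array's place among the strongest peaks was not alike in the lists. Among the 25% of asynchronous peaks with the highest fold enrichment it held 813, which is 41.7% of its own peaks (39.5 to 44.0%). Among the same 25% of mitotic peaks it held 507, which is 23.0% (21.3 to 24.9%). In the densely covered block these shares were 57.8% (53.9 to 61.7%) and 28.8% (25.7 to 32.1%), and in the last block 37.4% (33.6 to 41.3%) and 20.3% (17.4 to 23.5%). Fold enrichment is relative within each list, so these shares place the array within its own list and do not measure a change of signal.

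The peaks of highest fold enrichment were not the widest. In the asynchronous list they were at 52320503 to 52321948 (fold enrichment 15.5, 1446 bp), 51758752 to 51759620 (15.5, 869 bp) and 52660152 to 52661874 (15.4, 1723 bp). In the mitotic list they were at 51628251 to 51629174 (14.7, 924 bp), 53665451 to 53665898 (14.5, 448 bp) and 51389955 to 51390494 (14.2, 540 bp). Each of these 6 peaks met exactly 1 peak of the other list. The widest asynchronous peaks, by contrast, were met by several mitotic ones: that at 52330754 to 52342896 (12143 bp) by 3, that at 51906403 to 51918146 (11744 bp) by 7 and that at 51144551 to 51154372 (9822 bp) by 4. The next widest mitotic peaks after the one named above, at 51184254 to 51193374 (9121 bp) and 51328376 to 51336221 (7846 bp), each met 3 asynchronous peaks.

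Most covered length of the array was common to the lists. At an overlap of at least 1 bp, 1729 of 1948 asynchronous peaks (88.8%, 87.3 to 90.1%) met a mitotic peak, against 81.9% over the whole list, and 2022 of 2200 mitotic peaks (91.9%, 90.7 to 93.0%) met an asynchronous one, against 79.2%. Shared DNA amounted to 2.06 Mb, or 81.5% of what the asynchronous peaks covered and 89.7% of what the mitotic peaks covered, and the Jaccard index (shared over combined length) was 74.5%. An overlap of 1 bp is easily met in an array covered over 58.9% or more with median gaps of 280 and 330 bp, and the level without any association was not computed, so these shares say little about exact placement. With a reciprocal overlap of at least 50% the shares of peaks fell to 64.7% and 57.3%. The index was 81.5% in the densely covered block, 67.3% in the middle block and 72.8% in the last block, the same order as coverage. It rises with coverage even without association, so this order does not show closer matching apart from coverage. In the sparse first 0.4 Mb it was 7.04%.

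More asynchronous array peaks met several mitotic peaks than the reverse. Of the asynchronous array peaks, 386 (19.8%, 18.1 to 21.7%) met 2 or more mitotic peaks, against 14.2% over the whole list. The reverse held for 196 mitotic peaks (8.91%, 7.75 to 10.2%), against 12.4%. Over the largest peak regions of 23 chromosomes the asynchronous share had a median of 17.1%, and 6 regions exceeded that of chromosome 11. Asynchronous peaks met by 2 mitotic peaks had a median width of 1784 bp, and the 91 met by 3 or more one of 3595 bp. Mitotic peaks met by 2 and by 3 or more asynchronous ones had medians of 1970 and 3244 bp. A peak that meets several others must span the gaps between them, so these classes hold wide peaks by construction. The asynchronous peaks met by 3 or more had a fold enrichment of 10.1 in the median and were all strong.

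Peaks that matched singly were mostly narrower in mitosis. In 1055 pairs each peak met only the other, and the asynchronous peaks had a median width of 868 bp and the mitotic peaks one of 719 bp. The mitotic peak was the narrower in 733 pairs (69.5%) and the wider in 317. It lay inside its partner in 467 pairs and around it in 150. Starts agreed within 25 bp in 28.4% of pairs and ends in 30.1%, and the median shift was 51 bp at either edge. Pairs were formed in the array only, so the matching shares over the whole lists are not known. Median width was lower in mitosis over the whole lists too (796 against 868 bp), so the narrowing in pairs cannot be called particular to the array.

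The covered length that the mitotic list lacked came mainly from the edges of shared peaks. Of 469 kb covered in asynchronous cells only, 242 kb (51.7%) lay at the ends of peaks that had a mitotic partner, 106 kb (22.5%) in gaps inside them, and 121 kb (25.8%) in whole peaks without a partner. In the other direction 236 kb was covered in mitotic cells only, with 102 kb at ends, 38.7 kb in inner gaps and the remaining 40.3% in whole peaks. Ends and inner gaps thus made up 74.2% of the length missing from the mitotic list and 59.7% of that missing from the asynchronous list. An overlap of 1 bp made a peak shared, and whole peaks without a partner held only 4.78% of asynchronous and 4.13% of mitotic covered length. The split therefore depends on that limit, and it was not computed over the whole lists, so it is not shown to be particular to the array.

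Peaks without a partner were shorter and weaker than matched peaks in both lists. The 219 asynchronous ones had a median width of 396 bp and a median fold enrichment of 5.88, and the 178 mitotic ones 392 bp and 6.19. Peaks that met exactly 1 partner had 841 bp and 9.43 (asynchronous), and 721 bp and 8.72 (mitotic). A peak without a partner must fit inside a gap of the other list, so this class favours short peaks by construction. The same values were not computed over the whole lists. By the limit for strong peaks, 46.1% of unpartnered asynchronous and 54.5% of unpartnered mitotic peaks were strong, against 90.5% and 87.7% of those with exactly 1 partner. Peak names carry running numbers in genome order, so a missing number marks a call removed before deposit. Of the 219 asynchronous peaks, 208 lay in a gap of the mitotic list with at least 1 missing number, and 27.4% of all gaps between mitotic array peaks had one. For the mitotic peaks it was 174 of 178, against 23.5% of asynchronous gaps. These shares of gaps are no like-for-like background, since a gap that holds a whole unpartnered peak is longer than that peak, and all gaps had medians of only 330 bp (mitotic) and 280 bp (asynchronous). Whether the removed calls overlapped these peaks cannot be read from the lists.

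A larger share of calls was kept in the array than over the whole lists. Listed peaks made up 73.7% of the 2644 asynchronous and 71.4% of the 3081 mitotic call numbers that the array spanned, against 42.4% and 22.4% over the lists. Within the array the kept share was 85.5% and 82.6% in the densely covered block, 70.9% and 66.6% in the middle block and 23.4% and 18.2% in the sparse first 0.4 Mb. In the short arm flank it was 28.2% and 23.1%, and in the long arm flank 17 of 100 and 22 of 141 numbers. The part of this filter in the coverage differences between blocks was not tested.

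Distances between peak starts in the array were fitted with a leading period, and the preference for it was slight. Distances up to 20 kb between starts were counted and scored against periods from 300 to 4000 bp, and the leading period was 846 bp (asynchronous) and 848 bp (mitotic). The most frequent distance below 5000 bp was longer, 2549 bp and 3375 bp, each close to a whole multiple of the period. Peak ends gave 848 and 850 bp, while midpoints gave 426 and 842 bp. Of start distances of at least 1 period, 27.3% (asynchronous) and 27.7% (mitotic) fell in the 25% of the period centred on a multiple. The 25% centred midway between multiples held 23.8% and 24.1%. Since the period was chosen from these same distances, some excess near its multiples follows from the choice, and these shares are no separate evidence for it. Positions are resolved to about 25 bp only: 98.4% of asynchronous and 98.0% of mitotic starts were at most 5 bp above a multiple of 25.

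For starts, this preference was clearest in the densely covered block. There the leading period was 852 bp in both lists, and the 5 most frequent asynchronous distances up to 6000 bp (5099, 4253, 1722, 5972 and 2548 bp) all lay within 18 bp of a multiple of it. Of the 5 most frequent mitotic distances (4249, 3375, 1699, 6000 and 3500 bp), 4 lay within 36 bp of a multiple and the last lay 92 bp away. Counted over all distances, the preference was modest: 30.7% of asynchronous and 29.2% of mitotic distances fell in the 25% of the period centred on a multiple, and 22.9% and 22.7% in the 25% centred midway between multiples. The period was chosen from these same distances, so their closeness to its multiples and these shares describe the fit and are no separate evidence for it. Midpoints in this block gave leading periods of 424 and 422 bp. In the last block the leading periods were 846 and 848 bp. In the middle block they were 838 and 648 bp with lower scores, 3.17 and 2.75 against 7.31 and 6.38 in the densely covered block, so starts gave no common period there, while midpoints gave 844 and 840 bp with scores of 3.10 and 2.77, and ends 616 and 502 bp. The score is the strength of the cosine fit and has no limit of its own here. The lists share 1 reference sequence, and spacing set by that sequence, by the placement of reads among near-identical copies or by the recovered RNA cannot be told apart.

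**Figure D3:**
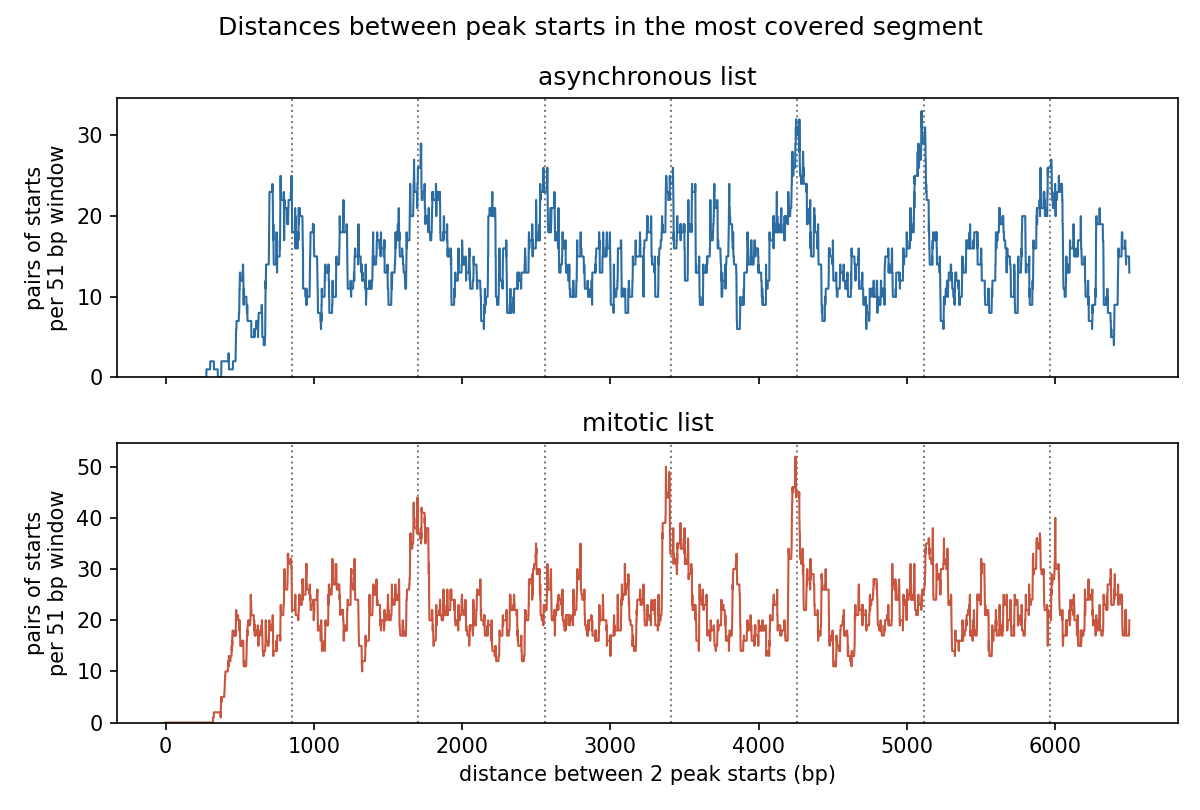
Number of pairs of peak starts per 51 bp window of distance (bp) in the densely covered block of the array, asynchronous list above and mitotic list below. Dotted lines mark whole multiples of the leading period of 852 bp, which was chosen from these same distances. The highest counts, at 5099 bp (asynchronous) and 4249 bp (mitotic), lie next to such lines.

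The short arm flank held a single cluster, from 48878304 to 49119294, that ended 1.48 Mb before the array window. It had fewer but longer peaks in mitosis: 33 asynchronous peaks covered 67.9 kb and 21 mitotic peaks 86.0 kb, a ratio of 1.27 for covered length and 0.636 (0.350 to 1.13) for peak number. That interval includes 1, and with strong peaks alone the count ratio turned to 1.4 (0.578 to 3.52), from 10 and 14 peaks. Most of the covered length was in a few wide peaks. The 6 asynchronous peaks of at least 3 kb held 76.6% of it, at fold enrichments of 6.98 to 12.4, and the 8 mitotic ones 85.7%, at 7.73 to 13.5. All of these wide peaks met a peak of the other list.

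At the array side of that cluster, 5 wide and strong peaks were at nearly the same positions in both lists. The peak at 49033353 to 49047406 (14054 bp, fold enrichment 12.4) was found in mitosis at 49033153 to 49047770 (14618 bp, 13.2). That at 49024003 to 49032446 (8444 bp, 11.9) was found at 49024294 to 49032670 (8377 bp, 13.5), that at 49099904 to 49103519 (3616 bp, 12.4) at 49099880 to 49103719 (3840 bp, 13.1) and that at 49106397 to 49119094 (12698 bp, 10.9) at 49106903 to 49119294 (12392 bp, 12.3). The peak at 49092279 to 49099373 (7095 bp, 10.8) had its counterpart at 49092629 to 49099372 (6744 bp, 12.4). All 5 exceeded the median fold enrichment of the array in both lists. Apart from a mitotic peak of 14669 bp among them, described below, the other wide peaks lay farther from the array. These were at 48973230 to 48979349 (6120 bp) in the asynchronous list and at 48963079 to 48968047 (4969 bp) and 48974652 to 48982772 (8121 bp) in the mitotic list. Peaks under 3 kb numbered 27 in the asynchronous list, with a median width of 417 bp, and 13 in the mitotic list, with one of 672 bp. Of the peaks under 3 kb, 12 and 8 met a peak of the other list.

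The largest difference in the flanks was 1 mitotic peak, at 49077304 to 49091972 (14669 bp, fold enrichment 11.5), the widest of the window in either list. It met an asynchronous peak over only 72 bp at its end. The asynchronous list had no peak in the 44494 bp before that point, but 7 call numbers were missing there, so calls had been made in that stretch and removed before deposit. The flank as a whole had 18.1 kb more covered length in the mitotic list.

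The long arm flank was sparser and its peaks were seldom shared. Its cluster ran from 55028602 to 55197348, beginning 0.529 Mb after the array window, with 17 asynchronous peaks over 20.8 kb and 20 mitotic peaks over 15.1 kb, and 2 further mitotic peaks lay nearer to the array, at 54897303 and 54905455. The count ratio over the flank was 1.29 (0.656 to 2.60), and it fell to 0.867 (0.380 to 1.95) for peaks at least 300 bp wide. In each list only 4 met a peak of the other, which is 23.5% of the asynchronous (6.81 to 49.9%) and 18.2% of the mitotic ones (5.19 to 40.3%). Over the whole lists these shares were 81.9% and 79.2%. The Jaccard index was 22.9%, against 55.9% in the short arm flank. Coverage differed too, at 0.595% and 0.450% of the long arm flank and 2.61% and 3.31% of the short arm flank. The index rises with coverage even without association. One strong site at the far end was common to both: it covered 10722 bp from 55186627 to 55197348 in the asynchronous list, at a fold enrichment of 10.03, and 6568 bp from 55185729 to 55192296 in the mitotic list, at 10.9. The other peaks reached fold enrichments of at most 6.58 (asynchronous) and 7.76 (mitotic). Beyond that site no peak was listed over the remaining 2.80 Mb of the window.

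**Figure D4:**
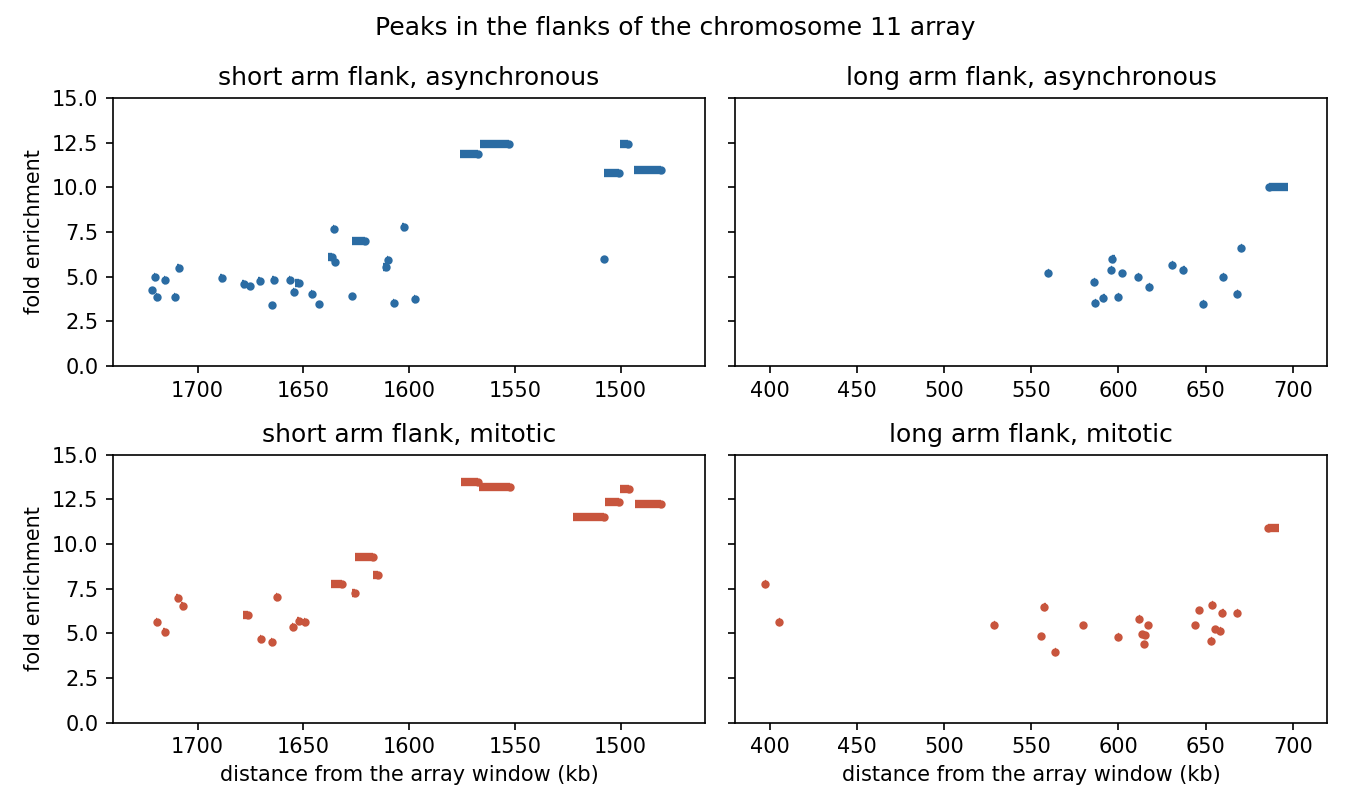
Fold enrichment of each flank peak against its distance from the array window in kb, short arm flank at left (array to the right) and long arm flank at right (array to the left), asynchronous list above and mitotic list below. Bars show peak width and points the edge nearer to the array, and the wide peaks above 10 recur at the same distances in both lists, apart from the mitotic peak of 14669 bp.

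Set beside the largest peak region of each of the 23 chromosomes with peaks, the chromosome 11 array had nearly the lowest ratio of mitotic to asynchronous covered length. Its ratio of 0.908 was exceeded by 21 regions and undercut only by that of chromosome 1, at 0.906, and the median of the regions was 1.01. Its ratio of peak number, 1.13, was exceeded by 3 regions (chromosomes 4, 16 and X), and its ratio of median width, 0.811, was undercut by those of chromosomes 1 and X. The largest regions of the other chromosomes with family 3 repeats lay on the same side, though that of chromosome 1 was not separated into its families. The count and covered length ratios were 1.103 and 0.906 on chromosome 1, 1.12 and 0.985 on chromosome 17, and 1.18 and 0.940 on X. That side was not particular to family 3: 8 of the 23 regions had more peaks and less covered length, also those of chromosomes 3, 5, 10 and 19. Chromosomes 5 and 19, which share the family 1 dimer with chromosome 1, had ratios of 1.06 and 0.941, and 1.01 and 0.948. Of the 23 regions, only chromosomes 1, 11, 17 and X had at least 10% more peaks and less covered length in mitosis, a limit chosen after the values were seen. With strong peaks only, that held for 2 regions, chromosomes 11 and X, and chromosome 17 had a covered length ratio of 1.01.

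**Figure D5:**
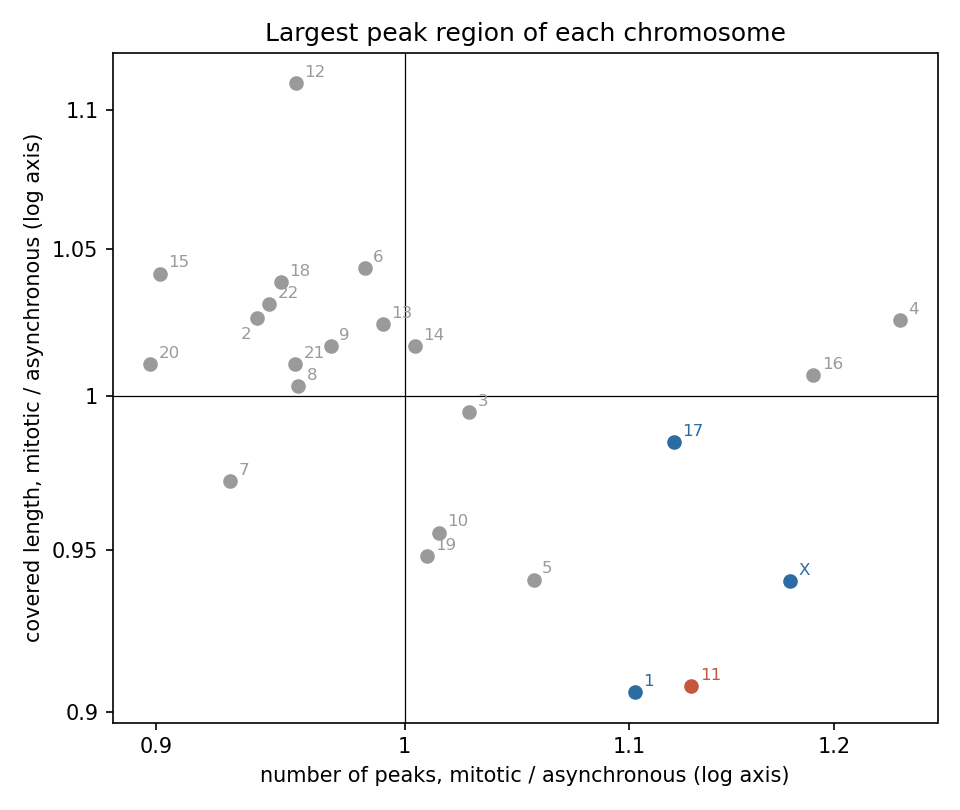
Ratio of mitotic to asynchronous covered length against the ratio of peak number, both on log axes, for the largest peak region of each chromosome. Chromosome 11 (red) lies at 1.13 and 0.908, and the other chromosomes with family 3 repeats (1, 17 and X, blue) also lie right of 1 and below 1, as do chromosomes 3, 5, 10 and 19.

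These 4 regions differed in the overlap of the lists and in coverage, and the Jaccard index rises with coverage even without association. The Jaccard index was 74.5% for chromosome 11, 71.4% for X, 59.5% for chromosome 1 and 50.4% for chromosome 17, and their asynchronous coverage was 65.2%, 67.2%, 60.4% and 43.2% in the same order. Median fold enrichment in the asynchronous list was 9.17 on chromosome 11 and 8.81 on X, against 7.44 on chromosome 1 and 7.16 on chromosome 17. The leading period of starts also differed, with 1010 bp (asynchronous) and 340 bp (mitotic) for chromosome 1, 1354 bp in both lists for 17, and 1026 and 684 bp for X. Only chromosomes 11 and 17 among the 4 had leading periods within 2 bp of each other in both lists. No difference between these arrays was tested, since each is a single region of the same lists.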

How the data were processed

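Genomic DNA recovered by ChIRP was represented by 1 deposited peak list per condition, for which the authors merged the Odd and Even pull-downs, per the labels. The submitters' processing notes name fastp, Bowtie2, MACS2 and build hs1, and their versions and settings, the control and the placement of multiply matching reads are not given. The lists have no header, and columns were read from their values and MACS2's column order. The deposited fold enrichment (a ratio) and −log10 q value were used within a list, for medians, ranks and limits. An exception is the ratios between lists with strong peaks only. They apply the same limit to both lists, which 73.7% of asynchronous and 77.6% of mitotic peaks passed. The authors' pileup signal and 3 unnamed score columns in the deposited lists were not used. Start and end are 1-based, and peaks were assigned by start.

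The members, blocks and tests were chosen with earlier results of these data known. The rule for named items took, per list, the 3 peaks of highest fold enrichment and the 3 widest in the array and each flank, the 3 longest uncovered stretches, the 3 highest, lowest and most different bins, and flank clusters of at least 5 peaks, and the text prints those that bear on a result. No gene is named, because no hs1 annotation was used here. Largest regions join peaks of both lists across gaps of at most 100 kb, with at least 20 peaks. Intervals are Clopper-Pearson for shares and exact conditional binomial for ratios of counts. Periods were scored with a cosine in steps of 2 bp after removal of a moving mean of 1501 bp. Code was tested on simulated data. Scripts ran under Python 3.11.15 with scipy 1.17.1, numpy 2.4.6, matplotlib 3.10.9 and pandas 2.3.3.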

Additional observations from a re-analysis of the deposited data

How the results depend on the processing

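No paired analysis was possible because each condition has 1 list of merged libraries, and for the same reason no library could be left out. Of 56 values under alternatives, 41 stayed within their interval or tolerance (5% for values without an interval, 10 bp for spacing, 1.5 times for the count of bins). A limit on strong peaks turned the short arm flank count ratio to 1.40 and moved the long arm one to 3.50, and a least width of 300 bp turned the latter to 0.867 and moved the most frequent asynchronous start distance to 4250 bp. Reciprocal overlap of 50% gave 64.7% of asynchronous and 57.3% of mitotic array peaks met. Peak ends gave most frequent distances of 3399 and 1750 bp, and midpoints 1662 and 1675 bp, with an asynchronous period of 426 bp. With limits of 8 for fold enrichment and 10 for −log10 q, 66.0% of asynchronous and 58.6% of mitotic array peaks were strong, against 46.4% and 49.7% of the lists, and among the 25% with the highest fold 41.7% and 23.0%. The cause of these moves was not tested. The covered length ratio of the array lay between 0.897 and 0.909 in each alternative run, and bins with less mitotic coverage between 87.2% and 97.1%. Leaving out the first 0.4 Mb, an alternative chosen after seeing the data, gave 0.909 and 97.1%. Depth per library is unknown.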
